A study of Mus musculus with 6 samples.

Results

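The genes described here encode the SR proteins (symbols starting with *Srsf*) and the heterogeneous nuclear ribonucleoproteins, or hnRNPs (symbols starting with *Hnrnp*). Every protein-coding gene with either prefix was taken from the gene count table, which gave 11 SR genes and 20 hnRNP genes, 31 of the 54232 genes listed. Within each family the genes were taken by name alone, and 2 processed pseudogenes that carry the hnRNP prefix were left out. The families themselves were picked with earlier results of these data known. The question was whether the RNA levels of both families differed between the groups of testes, and whether the families differed from each other.

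Whole testes of B6D2F1 mice at postnatal day 12 (P12) were profiled by bulk RNA-seq, with 3 libraries labelled *Dis3l2* KO and 3 control libraries labelled *Dis3l2* WT. In the study's methods the first group carries *Stra8-Cre* with 1 floxed and 1 deleted *Dis3l2* allele (*Dis3l2* cKO) and the controls are littermates. *Stra8-Cre* is active in part of the spermatogonia and up to pre-leptotene spermatocytes, so the somatic cells of these testes keep the floxed allele. The design sentence deposited with the series names *Dis3*, the related nuclear exosome nuclease, in place of *Dis3l2*.

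The count of *Dis3l2*, the cytoplasmic 3′ to 5′ exoribonuclease named in the labels, was not lower in the first group: 31.6, 25.4 and 27.5 CPM (counts per library total of 1000000, TMM-scaled) in the libraries labelled KO, against 25.8, 23.5 and 23.0 CPM in control libraries (log2 fold change 0.22 ± 0.11 SE, edgeR adjusted p = 0.136). A count over the whole gene also takes reads from exons outside any deleted part, but exons were not counted apart, so the part of such reads was not tested. *Dis3* had 59.1, 64.3 and 68.1 CPM with the KO label, against 133, 148 and 137 CPM in control libraries, a log2 fold change of -1.13 ± 0.08 (SE, edgeR adjusted p = 2.71e-07). Why the count of *Dis3* was lower and that of *Dis3l2* was not was not tested. The study also measured *Dis3l2* in P12 testes by other methods, which were not analysed here. The first group is called KO-labelled throughout, and all directions below rest on the labels. Totals ran from 33325483 to 44956193 counts per library, and all 31 members were tested, the lowest count being 46 for *Srsf12* and 811 for any hnRNP gene. The study calls the 3 libraries of a condition biological replicates, and the labels do not name the animals.

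SR proteins bind exonic RNA through RNA recognition motifs and recruit the splicing machinery through a domain rich in arginine and serine (RS domain), whose phosphorylation controls their location and activity. HnRNPs coat nascent RNA and often oppose exon inclusion, although the outcome depends on where they bind. Many members of both families keep their own level in check through poison exons that send the transcript to nonsense-mediated decay. In the testis, the change from spermatogonia to spermatocytes is accompanied by a broad switch in alternative splicing.

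Promoters of members from both families and both directions are shown here, because the share of genes holding a given motif upstream differed between the families, a difference that was described and not tested. They are the 250 bases before the RefSeq start (build GRCm38.p6) of the 2 SR genes with the lowest adjusted p, both lower, and of the 2 lower and 2 higher hnRNP genes that passed the test. Capitals mark CCAAT, the box bound by NF-Y, which on the other strand reads ATTGG, and the motif CCGGAA, the core of ETS family sites, which on the other strand reads TTCCGG. *Srsf1* is at chr11:88047123-88047372 (+), *Srsf7* at chr17:80207306-80207555 (-), *Hnrnph3* at chr10:63023850-63024099 (-), *Hnrnpdl* at chr5:100039223-100039472 (-), *Hnrnpa0* at chr13:58128557-58128806 (-) and *Hnrnpa1* at chr15:103240147-103240396 (+). The windows of *Hnrnph3* and *Hnrnpdl* lie inside these genes as counted, which reach to 63024217 and 100039664. Those of *Srsf1*, *Srsf7*, *Hnrnpa0* and *Hnrnpa1* lie before the counted gene.
Srsf1: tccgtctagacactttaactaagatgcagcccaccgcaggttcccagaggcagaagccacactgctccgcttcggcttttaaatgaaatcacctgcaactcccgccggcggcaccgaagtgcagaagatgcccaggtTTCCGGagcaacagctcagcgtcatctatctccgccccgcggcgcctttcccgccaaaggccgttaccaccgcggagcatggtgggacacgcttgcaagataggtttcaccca
Srsf7: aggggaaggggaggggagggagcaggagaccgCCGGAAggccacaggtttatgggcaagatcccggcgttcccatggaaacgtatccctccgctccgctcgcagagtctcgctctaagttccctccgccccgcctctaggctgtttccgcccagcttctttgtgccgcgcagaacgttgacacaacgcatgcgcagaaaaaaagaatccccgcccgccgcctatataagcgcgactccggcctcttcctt
Hnrnph3: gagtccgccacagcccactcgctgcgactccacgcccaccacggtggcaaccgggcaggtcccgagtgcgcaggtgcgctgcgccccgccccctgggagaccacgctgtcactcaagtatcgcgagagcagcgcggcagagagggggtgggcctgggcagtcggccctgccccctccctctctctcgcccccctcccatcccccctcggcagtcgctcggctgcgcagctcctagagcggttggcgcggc
Hnrnpdl: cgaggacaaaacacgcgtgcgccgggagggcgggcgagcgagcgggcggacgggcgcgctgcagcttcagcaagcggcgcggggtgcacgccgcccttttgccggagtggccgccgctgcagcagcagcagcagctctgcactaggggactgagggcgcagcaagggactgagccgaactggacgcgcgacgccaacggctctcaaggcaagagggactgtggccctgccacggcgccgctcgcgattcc
Hnrnpa0: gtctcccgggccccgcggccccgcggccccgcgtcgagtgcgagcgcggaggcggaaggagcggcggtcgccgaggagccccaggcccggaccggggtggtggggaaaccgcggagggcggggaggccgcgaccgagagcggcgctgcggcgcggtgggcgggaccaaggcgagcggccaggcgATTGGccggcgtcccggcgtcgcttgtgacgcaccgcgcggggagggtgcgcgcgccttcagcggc
Hnrnpa1: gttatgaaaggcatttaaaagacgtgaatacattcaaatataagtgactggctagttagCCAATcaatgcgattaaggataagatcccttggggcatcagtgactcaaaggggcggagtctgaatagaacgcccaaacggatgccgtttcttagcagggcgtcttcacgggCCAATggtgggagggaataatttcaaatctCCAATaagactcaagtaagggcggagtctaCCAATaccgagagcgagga
The windows of *Srsf1* and *Srsf7*, which fell, each held 1 CCGGAA and 0 CCAAT, and those of *Hnrnph3* and *Hnrnpdl*, which also fell, held 0 of both. The windows of *Hnrnpa0* and *Hnrnpa1*, which rose but had fold changes below 0 when libraries were scaled to somatic markers, held 1 and 4 CCAAT and 0 CCGGAA. Promoters were found for 29 of the 31 members, all but *Hnrnpll* and *Hnrnpul2*, and 7 short motifs were searched on both strands, chosen after the values of the members were known. CCAAT was present upstream of 3 of 11 SR genes (27.3%) and 13 of 18 hnRNP genes (72.2%), against 40% of the 12063 tested protein-coding genes and 37.5% of all promoters. CCGGAA was present upstream of 6 of 11 SR genes (54.5%) and 5 of 18 hnRNP genes (27.8%), against 22.5% of tested protein-coding genes and 13.6% of all promoters. *Srsf3*, which also fell, held CCAAT and no CCGGAA, and *Srsf2* and *Srsf5*, which did not pass the test, held CCGGAA. Of the 13 hnRNP genes with CCAAT only *Hnrnpa0* and *Hnrnpa1* were called. A link between motif and direction was not tested. GGGCGG, the box bound by SP1, was present in 10 of 11 SR and 14 of 18 hnRNP promoters, against 60.8% of tested protein-coding genes and 35.4% of all promoters. TTCCCGCC, an E2F site that can overlap GGGCGG on the other strand, was present in 3 of 11 SR and 4 of 18 hnRNP promoters, against 3.89% of tested protein-coding genes and 2.13% of all promoters. For TATAAA the counts were 2 of 11 SR and 1 of 18 hnRNP promoters (8.59% and 14.3% of the same 2 backgrounds), for CACGTG 0 of 11 and 3 of 18 (9.60% and 6.86%), and for TGACGTCA 0 of all 29 (2.81% and 1.77%). These matches describe letters in a window and no binding was measured.

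The SR genes leaned lower in KO-labelled testes and the hnRNP genes were split. Of the 11 SR genes, 5 fell (*Srsf1*, *Srsf7*, *Srsf3*, *Srsf4* and *Srsf11*), 0 rose and 6 did not pass the test. Of the 20 hnRNP genes, 2 fell (*Hnrnph3* and *Hnrnpdl*), 2 rose (*Hnrnpa0* and *Hnrnpa1*) and 16 did not pass the test. Calls are edgeR quasi-likelihood tests with Benjamini-Hochberg adjustment over the 20327 genes tested, at an adjusted p under 0.05. Across those genes 32.7% were called, 16.2% higher and 16.5% lower. The SR genes were thus called lower in 45.5% of cases and called at all in 45.5%, and the hnRNP genes were called in 20% of cases, 10% in each direction. At an unadjusted p under 0.05, 6 SR genes passed, all 6 lower, and 6 hnRNP genes passed, 3 lower and 3 higher. At that threshold 8646 of the 20327 genes tested passed in either direction. DESeq2 also called 0 SR genes higher.

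The median log2 fold change was -0.17 over the SR genes and 0.01 over the hnRNP genes, beside -0.02 over all genes tested. The changes were small: the median size of the log2 fold change, without its sign, was 0.21 for SR and 0.13 for hnRNP genes, beside 0.34 for all genes. Most members are among the more abundant genes, and no set of genes of like level was compared. Of the 11 SR genes 9 had a log2 fold change below 0, the exceptions being *Srsf9* and *Srsf12*, and of the 20 hnRNP genes 10 did. The KO-labelled and control libraries did not overlap for 7 of 11 SR genes (63.6%), all 7 lower, and for 8 of 20 hnRNP genes (40%), 4 in each direction, beside 45.5% of all genes tested. Whether the families differ was described and not tested.

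**Figure D1:**
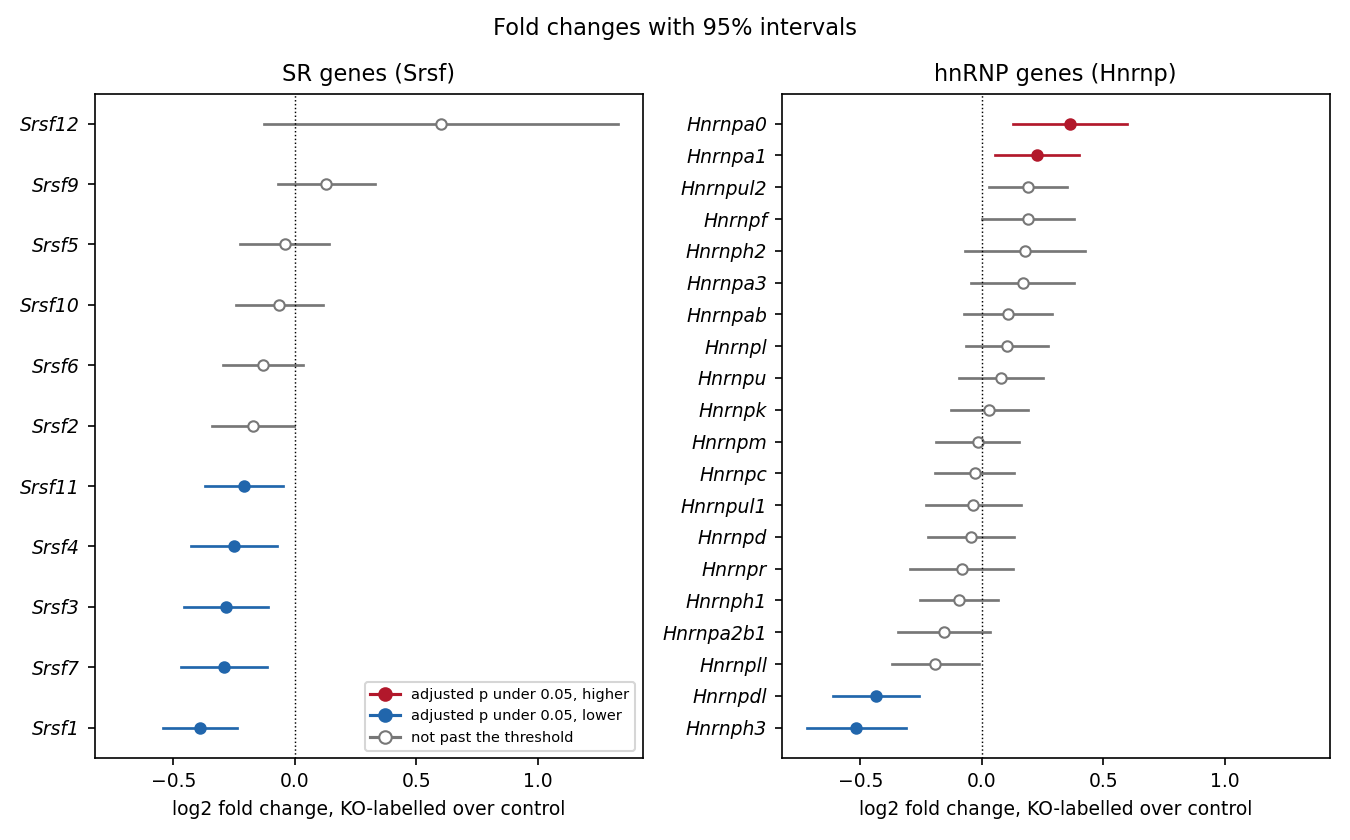
Log2 fold change of each member, KO-labelled over control (x axis), with its 95% interval from edgeR, for the 11 SR genes (left) and the 20 hnRNP genes (right). Filled points passed an adjusted p of 0.05: 5 SR genes were lower, and 2 hnRNP genes were higher and 2 lower. With libraries scaled to somatic marker counts, the 2 higher hnRNP genes have fold changes below 0.

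These calls rest on the usual assumption that most genes do not change. When libraries were scaled to the summed counts of somatic marker genes, the median of all genes shifted to -0.52, and 10 SR and 16 hnRNP genes were called lower and 0 of either higher, with 262 genes higher and 9591 lower in all, against 3294 and 3347. Relative to that shift, the median of the SR genes was -0.15 and that of the hnRNP genes 0.03. Because this scaling moves all genes down nearly alike, these relative medians repeat the main result and give it no further support. Without a filter on low counts, the median of all genes was -0.33 and both family medians lay above it. That median was taken over a larger set, since every gene with any count was kept. The SR median itself was then -0.15 and the hnRNP median 0.03. Of the 5 lower SR genes, 3 were called without KO-labelled replicate 1 or 3, 2 without control replicate 1, and 1 (*Srsf1*) without KO-labelled or control replicate 2; of the hnRNP genes, 0 were called higher without KO-labelled replicate 2 or 3 or control replicate 1, and 1 without control replicate 3.

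The markers of differentiating and meiotic germ cells had larger fold changes than the members, with median log2 fold changes of -1.48 and -1.82. The marker lists were chosen with earlier results of these data known, so their counts give no independent support. Over all genes tested 16.2% were called higher and 16.5% lower. Of 24 meiotic prophase markers 23 were called lower and 0 higher, and their summed level was 665 to 859 CPM in KO-labelled libraries, against 2175 to 2599 CPM in control libraries. Of 14 differentiating spermatogonia markers 11 were lower and 1 higher, with sums of 955 to 1200 CPM in KO-labelled libraries, against 2268 to 2513 CPM in control libraries. Of 18 markers of undifferentiated spermatogonia 10 were higher and 0 lower (1166 to 1471 CPM in KO-labelled libraries, against 858 to 869 CPM in control libraries), and among 20 Sertoli cell genes 17 rose and 0 fell (15270 to 15860 CPM in KO-labelled libraries, against 9514 to 10190 CPM in control libraries). Single genes made up much of these 2 sums. *Sdc4* held 580.1 to 838.5 CPM of the undifferentiated sum in KO-labelled libraries, against 346.5 to 390.5 CPM in control libraries. *Clu* held 5526 to 6198 CPM of the Sertoli sum in KO-labelled libraries, against 3491 to 3696 CPM in control libraries. Leydig cell markers were higher in 8 of 11, macrophage markers in 7 of 12, stromal markers in 5 of 10 and endothelial markers in 3 of 10, with 0 lower, whereas 1 of 10 peritubular myoid markers was higher and 3 lower. No marker of these lists was at 0 in every library, and DESeq2 gave the same counts of 0. Scaled to the counts of the somatic markers themselves, 24 meiotic prophase and 13 differentiating spermatogonia markers were lower and 0 higher, and 3 undifferentiated spermatogonia markers were higher and 3 lower. Of the somatic lists that set this scale, Sertoli cell markers were then higher in 5 and lower in 3, Leydig cell markers in 2 and 2, endothelial markers in 1 and 4, peritubular myoid markers in 0 and 8, and macrophage and stromal markers in 0 and 0. In whole testes, fewer cells of a type and less RNA per cell cannot be told apart, and the part of these markers in the values of the members was not tested.

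*Srsf1*, the prototype SR protein (SF2/ASF), which acts in constitutive and alternative splicing and in mRNA export, showed the clearest change in its family. It had 211, 213 and 216 CPM in KO-labelled libraries, against 286, 278 and 274 CPM in control libraries. The 3 KO-labelled values lay close together (SD 2.50 CPM), and all were below the control values. Its log2 fold change was -0.39 ± 0.07 (SE, 95% interval -0.54 to -0.24, edgeR adjusted p = 0.000708), and it was called in all 12 alternatives, with adjusted p from 5.14e-06 to 0.00991. The 12 include the scaling to somatic markers, which moves all genes down. Its exons lie on chromosome 11 at 88047373 to 88053755, and 100% of its 50-base windows were found in no other gene's transcripts.

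*Srsf7* (9G8) and *Srsf3* (SRp20) are small, closely related SR proteins that carry mRNA to the export receptor NXF1 and shape the choice of polyadenylation site. *Srsf7* had 55.4, 54.0 and 57.6 CPM in KO-labelled libraries, against 63.9, 68.9 and 71.3 CPM in control libraries (log2 fold change -0.29 ± 0.08 SE, edgeR adjusted p = 0.0146). *Srsf3* had 76.2, 75.9 and 73.6 CPM in KO-labelled libraries, against 96.8, 93.8 and 84.1 CPM in control libraries (log2 fold change -0.28 ± 0.08 SE, edgeR adjusted p = 0.0152). Neither gene's groups overlapped. Both calls depended on single libraries: with 1 library left out in turn, the adjusted p reached 0.0751 for *Srsf7* and 0.104 for *Srsf3*, and 3 of the 6 fits passed for each gene.

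*Srsf4* (SRp75) has the longest RS domain of the classical SR proteins. It had 89.8, 94.0 and 87.5 CPM in KO-labelled libraries, against 118, 104 and 101 CPM in control libraries, with no overlap (log2 fold change -0.25 ± 0.08 SE, edgeR adjusted p = 0.0320). *Srsf11* (p54), whose protein contacts the 3′ splice site factors, had 150 to 158 CPM in KO-labelled libraries, against 170 to 189 CPM in control libraries (log2 fold change -0.21 ± 0.08 SE, edgeR adjusted p = 0.0448). Each of these calls held in 1 of the 6 fits with a library left out, with adjusted p up to 0.209 and 0.246.

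**Figure D2:**
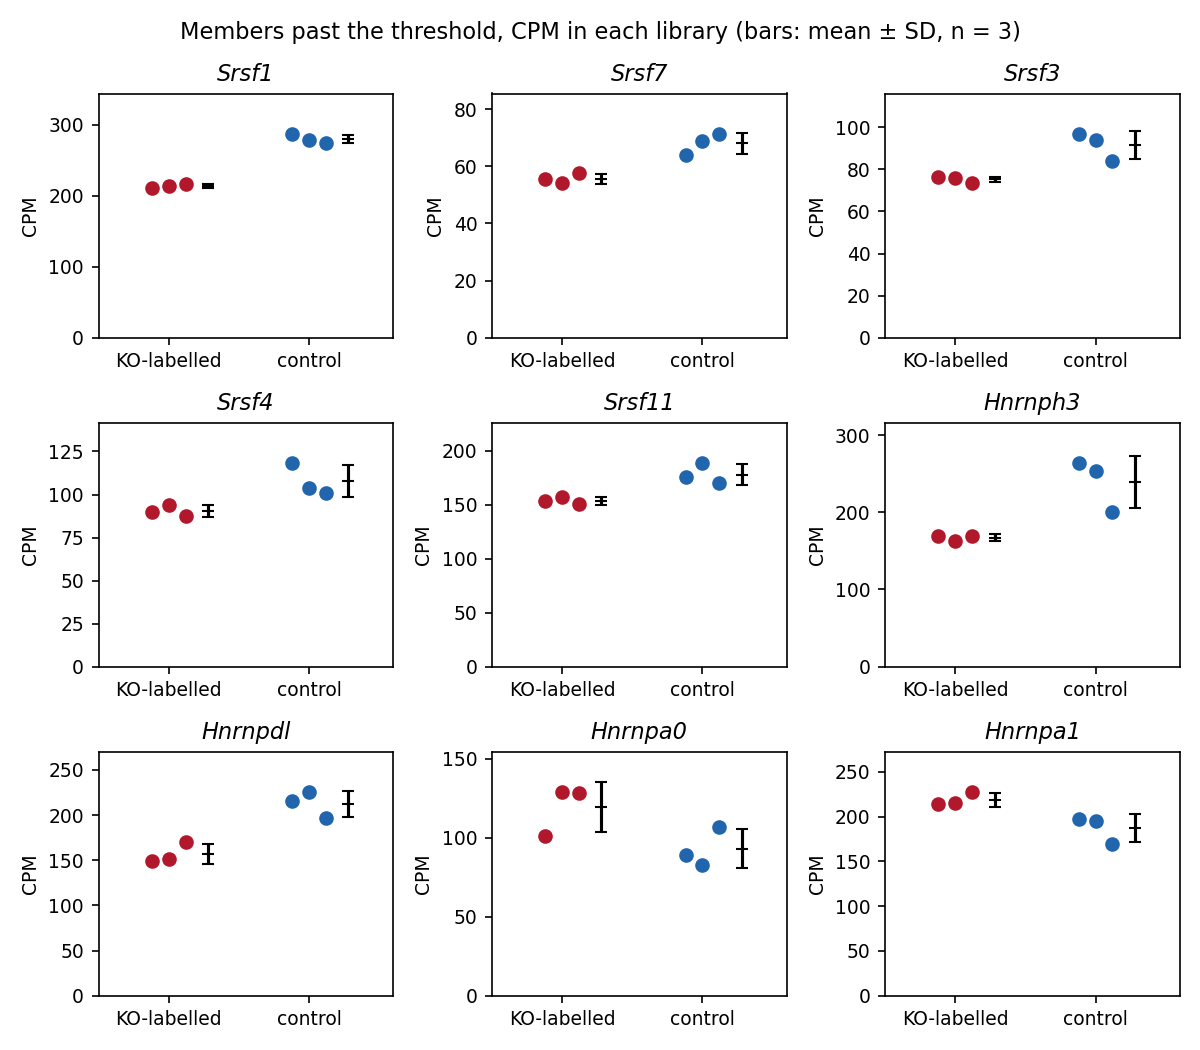
CPM (y axis, from 0) of the 9 members past the threshold in each of 3 KO-labelled (left) and 3 control libraries (right), with the mean ± SD beside the points. The KO-labelled points of *Srsf1* sit between 211 and 216, below the control points at 274 to 286, whereas the groups of *Hnrnpa0* overlap; *Hnrnpa0* and *Hnrnpa1* have fold changes below 0 when libraries are scaled to somatic marker counts.

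The other 6 SR genes did not pass the test. *Srsf2* (SC35) had 188, 165 and 185 CPM in KO-labelled libraries, against 199, 197 and 211 CPM in control libraries, with no overlap and a 95% interval of the log2 fold change from -0.34 to -0.0047 (edgeR adjusted p = 0.108). *Srsf6* (SRp55) also did not overlap, with 141 to 158 CPM in KO-labelled libraries, against 161 to 171 CPM in control libraries (interval -0.30 to 0.04). The interval was -0.24 to 0.11 for *Srsf10* (SRp38), an SR protein that turns into a repressor when it loses its phosphates, and -0.22 to 0.14 for *Srsf5* (SRp40). For *Srsf9* (SRp30c) it was -0.07 to 0.33. *Srsf12*, a relative of *Srsf10*, was the least abundant member, with 3.52, 1.73 and 1.76 CPM in KO-labelled libraries, against 1.79, 1.79 and 1.05 CPM in control libraries, and its interval of -0.13 to 1.33 was the widest. One KO-labelled library alone stood above the control values there.

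*Hnrnph3*, a short member of the hnRNP H/F group, which binds runs of G, had the lowest fold change of all 31 members. It had 170, 162 and 170 CPM in KO-labelled libraries, against 264, 253 and 201 CPM in control libraries. The control replicate 3 lay nearest to the KO-labelled values, and the groups did not overlap (log2 fold change -0.52 ± 0.10 SE, 95% interval -0.72 to -0.31, edgeR adjusted p = 0.000802). Its close relatives did not pass the test: *Hnrnph1* had an interval of -0.26 to 0.07, *Hnrnph2* one of -0.07 to 0.42 and *Hnrnpf* one of -0.0012 to 0.38.

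*Hnrnpdl*, a paralog of *Hnrnpd* (AUF1), which binds AU-rich elements and regulates mRNA decay, had 150, 151 and 170 CPM in KO-labelled libraries, against 215, 225 and 197 CPM in control libraries. The groups did not overlap (log2 fold change -0.44 ± 0.08 SE, edgeR adjusted p = 0.000976), while *Hnrnpd* itself had an interval of -0.22 to 0.13. *Hnrnph3* and *Hnrnpdl* were called in all 12 alternatives, among them the scaling to somatic markers that moves all genes down, with adjusted p no higher than 0.0108 and 0.0104.

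*Hnrnpa0* and *Hnrnpa1* belong to the hnRNP A/B group, whose best known action is to silence exons and to oppose *Srsf1* at 5′ splice sites. *Hnrnpa0* had 101, 129 and 128 CPM in KO-labelled libraries, against 89.3, 83.0 and 107 CPM in control libraries. Its groups overlapped, with KO-labelled replicate 1 below control replicate 3 (log2 fold change 0.36 ± 0.11 SE, edgeR adjusted p = 0.0203). *Hnrnpa1* had 214, 215 and 227 CPM in KO-labelled libraries, against 197, 195 and 169 CPM in control libraries, with no overlap (log2 fold change 0.22 ± 0.08 SE, edgeR adjusted p = 0.0450). Both calls were kept in 2 of the 6 fits with a library left out, with adjusted p up to 0.0873 and 0.162, and both fold changes turned negative when libraries were scaled to somatic markers, at -0.13 and -0.26. Of the 50-base windows of *Hnrnpa1*, 71.8% were found in no other gene's transcripts, and 19 of the 20 genes sharing the rest were pseudogenes. Reads from shared windows were not counted, so its count covers part of its transcript.

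The other A/B members did not pass the test. *Hnrnpa2b1*, which also reads N6-methyladenosine, had 1215, 1224 and 1208 CPM in KO-labelled libraries, against 1405, 1464 and 1192 CPM in control libraries. Control replicate 3 lay below the KO-labelled values there, and the interval of the log2 fold change was -0.34 to 0.03. *Hnrnpab* had 527, 643 and 563 CPM in KO-labelled libraries, against 529, 540 and 541 CPM in control libraries (interval -0.08 to 0.29). *Hnrnpa3* had 25.8 to 26.2 CPM in KO-labelled libraries, against 22.0 to 24.1 CPM in control libraries, with no overlap (interval -0.04 to 0.38), and 73.1% of its windows were found in no other gene's transcripts.

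*Hnrnpu* (SAF-A), a nuclear scaffold protein that binds chromatin and *Xist* RNA, had 1379, 1500 and 1452 CPM in KO-labelled libraries, against 1390, 1436 and 1278 CPM in control libraries (interval -0.10 to 0.25). Its relative *Hnrnpul2* had 483, 506 and 530 CPM in KO-labelled libraries, against 453, 449 and 431 CPM in control libraries, with no overlap and an interval of 0.03 to 0.35 (edgeR adjusted p = 0.0690). DESeq2 called it higher. *Hnrnpll*, which steers exon choice in lymphocytes, had 42.0 to 45.7 CPM in KO-labelled libraries, against 49.7 to 50.5 CPM in control libraries, with no overlap (interval -0.37 to -0.01, edgeR adjusted p = 0.0962). The remaining 7 hnRNP genes, *Hnrnpc*, *Hnrnpd*, *Hnrnpk*, *Hnrnpl*, *Hnrnpm*, *Hnrnpr* and *Hnrnpul1*, had log2 fold changes of -0.08 to 0.10, each with an interval that spanned 0. For *Hnrnpm*, 24.9% of the exon bases overlap the gene listed as *March2* on the same strand, and reads there were not counted.

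Levels can be compared between genes per length of exon (RPKM, the CPM divided by the exon length in kilobases). Reads with more than 1 position were not counted, while the full exon length was used. Levels can therefore be understated for *Hnrnpf*, *Hnrnpa1* and *Hnrnpa3*, with 56.8%, 71.8% and 73.1% of windows found in no other gene's transcripts. By that measure 23 of the 31 members lay above the 90th percentile of all genes tested, 8 SR and 15 hnRNP genes. *Hnrnpab* had 208 ± 21.4 RPKM in KO-labelled libraries and 193 ± 2.37 RPKM in the control (SD, n = 3 each), and *Hnrnpa2b1* had 185 ± 1.24 RPKM in KO-labelled libraries and 206 ± 21.8 RPKM in the control. *Hnrnpab* stood above *Hnrnpa2b1* in 3 of 3 KO-labelled libraries and in 1 of 3 control libraries, and the means differed by about their SDs. *Hnrnpu* followed, at 125 ± 5.24 RPKM in KO-labelled libraries and 118 ± 6.99 RPKM in the control. The lowest hnRNP genes were *Hnrnpll*, at 3.75 RPKM in KO-labelled libraries and 4.29 RPKM in the control, and *Hnrnpa3*, at 4.81 RPKM in KO-labelled libraries and 4.29 RPKM in the control.

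Among SR genes, *Srsf5* and *Srsf2* stood first and could not be ordered: *Srsf5* had 65.4 ± 5.65 RPKM in KO-labelled libraries and 67.3 ± 4.74 RPKM in the control, and *Srsf2* had 60.6 ± 4.31 RPKM in KO-labelled libraries and 68.4 ± 2.67 RPKM in the control (SD, n = 3 each). *Srsf1* was next in the control, at 49.0 ± 1.09 RPKM, above *Srsf10* at 39.6 ± 3.63 RPKM. In KO-labelled libraries *Srsf1*, at 37.4 ± 0.438 RPKM, lay among *Srsf9* at 39.0 ± 2.42 RPKM and *Srsf10* at 37.9 ± 1.70 RPKM, within their spread. *Srsf1* made up 10.3% to 10.8% of the summed RPKM of the SR genes in KO-labelled libraries, against 12.3% to 12.6% in the control, and *Srsf9* made up 10.6% to 11.7% in KO-labelled libraries, against 8.23% to 10.2% in the control. *Srsf12* was lowest, at 0.742 RPKM in KO-labelled libraries and 0.489 RPKM in the control.

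The sum over the 11 SR genes was 1491, 1487 and 1558 CPM in KO-labelled libraries, against 1727, 1725 and 1644 CPM in control libraries. The groups did not overlap, and the mean difference was -187 CPM, of which *Srsf1* gave -66.3 CPM. The sum over the 20 hnRNP genes was 7795, 8293 and 8147 CPM in KO-labelled libraries, against 8321, 8473 and 7679 CPM in control libraries, and the groups overlapped. There, lower values of *Hnrnpa2b1* (-138 CPM), *Hnrnph3* (-71.9 CPM) and *Hnrnpdl* (-55.4 CPM) stood beside higher values of *Hnrnpu* (75.7 CPM) and *Hnrnpul2* (62.0 CPM). The hnRNP sum was 5.23, 5.58 and 5.23 times the SR sum in KO-labelled libraries, against 4.82, 4.91 and 4.67 times in the control. This ratio is taken within a library and does not depend on scaling. Its groups did not overlap, also with sums of RPKM or with each of the 9 called members left out in turn, and the difference in log2 ratio was 0.15 (0.11 without *Srsf1* to 0.17 without *Hnrnph3*). These 10 alternatives were chosen after seeing the data, and no p is given for a sum over members. Each still held most of the called SR genes, and a ratio without all of them was not computed.

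**Figure D3:**
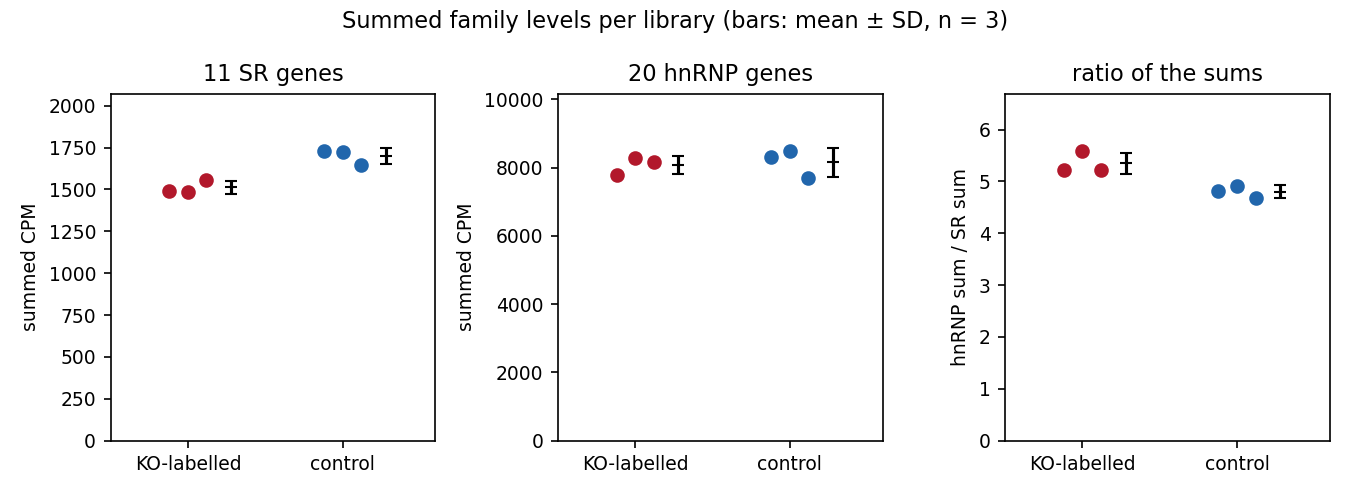
Summed CPM of the 11 SR genes, of the 20 hnRNP genes and the ratio of the sums (y axes, from 0) in 3 KO-labelled (left) and 3 control libraries (right), with the mean ± SD. The SR sums do not overlap (1487 to 1558 CPM in KO-labelled libraries, 1644 to 1727 CPM in control libraries), whereas the hnRNP sums do.

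Ratios between related genes, which are also free of scaling, were computed for 11 pairs, and for 7 of them (63.6%) the groups did not overlap, beside 41% of all pairs of tested genes with a count in every library. The log2 ratio of *Srsf1* to *Srsf9*, which share the order of their domains, was 1.62, 1.81 and 1.76 in KO-labelled libraries, against 2.41, 2.29 and 2.06 in the control. The log2 ratio of *Srsf10* to *Srsf12* was 6.18, 7.24 and 7.31 in KO-labelled libraries, against 7.35, 7.35 and 7.89 in the control, with 1 KO-labelled library far below the others and few counts for *Srsf12*. *Srsf3* and *Srsf7* kept nearly the same log2 ratio, 0.44 ± 0.07 in KO-labelled libraries and 0.43 ± 0.18 in the control (SD, n = 3 each).

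In the hnRNP genes, the log2 ratio of *Hnrnpa1* to *Hnrnpa2b1* was -2.51, -2.51 and -2.41 in KO-labelled libraries, against -2.84, -2.91 and -2.82 in the control. That of *Hnrnpd* to *Hnrnpdl* was 1.67, 1.76 and 1.64 in KO-labelled libraries, against 1.38, 1.23 and 1.28 in the control. Both pairs differed between groups by several times their SDs of 0.05 to 0.08. The log2 ratio of *Hnrnpl* to *Hnrnpll* was 3.33, 3.29 and 3.37 in KO-labelled libraries, against 3.01, 2.94 and 3.14 in the control, and that of *Hnrnpul1* to *Hnrnpul2* was 0.63, 0.92 and 0.70 in KO-labelled libraries, against 0.97, 0.98 and 0.98 in the control. For *Hnrnpc*, which forms tetramers on nascent RNA, over its relative *Raly* it was 0.30, 0.18 and 0.19 in KO-labelled libraries, against -0.06, -0.10 and -0.01 in the control. The groups of *Srsf3* to *Srsf7*, *Srsf4* to *Srsf6*, *Hnrnph1* to *Hnrnph2* and *Hnrnpr* to *Syncrip* overlapped.

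**Figure D4:**
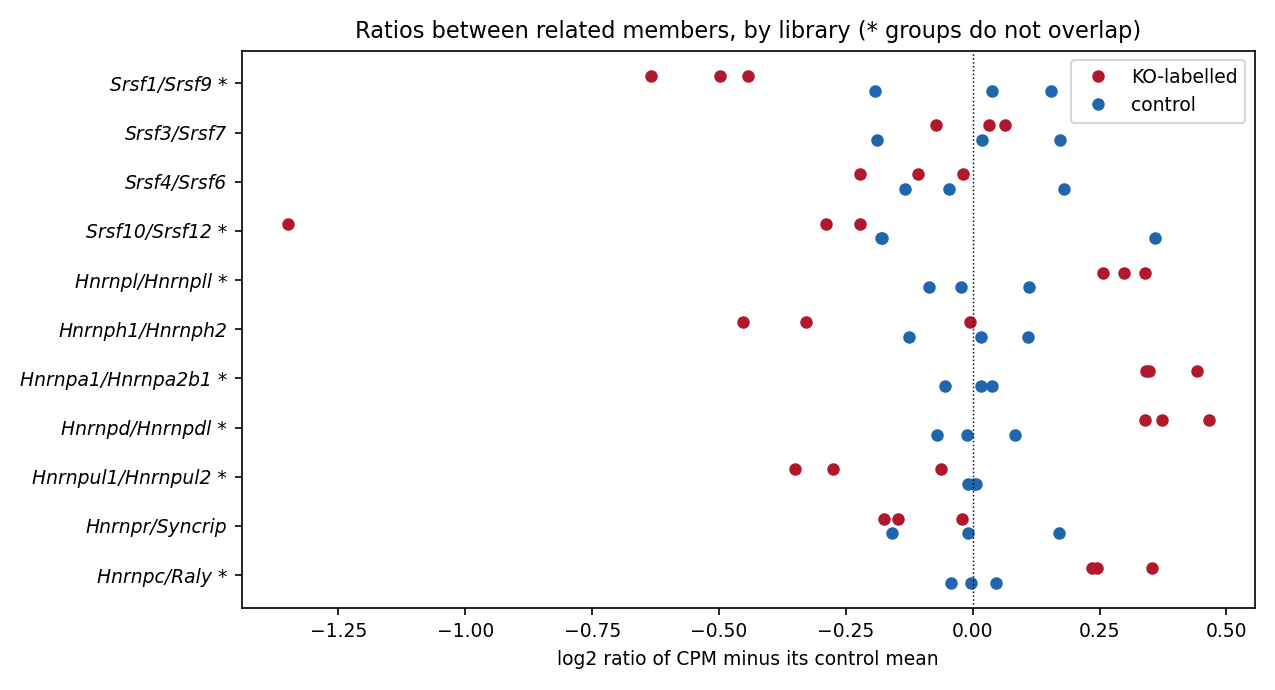
Log2 ratio of CPM of each of 11 pairs of related genes minus its control mean (x axis), with the 3 KO-labelled libraries drawn above the 3 control libraries of each pair. The asterisk marks the 7 pairs whose groups do not overlap; *Hnrnpd*/*Hnrnpdl* and *Hnrnpa1*/*Hnrnpa2b1* lie to the right of the control and *Srsf1*/*Srsf9* to the left.

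Other genes of the splicing machinery gave the setting of both families. The counts in these lists stand beside 16.2% called higher and 16.5% called lower over all 20327 genes tested. Of 9 kinases and import factors of SR proteins, 1 rose and 3 fell. *Srpk2*, a cytoplasmic kinase of RS domains, had 298, 307 and 321 CPM in KO-labelled libraries, against 217, 204 and 202 CPM in control libraries (log2 fold change 0.57 ± 0.08 SE, edgeR adjusted p = 4.54e-05). The nuclear RS domain kinases *Clk2* and *Clk3* fell, with log2 fold changes of -0.32 and -0.31 (edgeR adjusted p = 0.0106 and 0.0137), and *Clk4* fell as well. Of 25 SR-related proteins, 2 rose and 5 fell. *Srrm3* and *Srrm4*, known for microexon splicing in neurons, rose by 1.66 and 1.02 on the log2 scale (edgeR adjusted p = 7.88e-05 and 0.000106). Their levels were low, with 4.02 to 4.98 CPM of *Srrm3* in KO-labelled libraries, against 1.18 to 1.64 CPM in control libraries. *Tra2a*, a binder of exonic enhancers, and *Rnps1*, an exon junction complex partner, fell, with log2 fold changes of -0.53 and -0.49.

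Of 18 hnRNP proteins with other symbols, 4 rose and 8 fell. *Ptbp2*, the polypyrimidine tract binding protein of neurons and germ cells, had 85.7, 81.9 and 85.1 CPM in KO-labelled libraries, against 157, 181 and 153 CPM in control libraries (log2 fold change -0.96 ± 0.08 SE, edgeR adjusted p = 1.30e-06). *Rbmxl2* (hnRNP G-T), which is made in meiotic germ cells, had 3.52, 5.35 and 4.79 CPM in KO-labelled libraries, against 18.5, 11.6 and 16.1 CPM in control libraries (log2 fold change -1.75 ± 0.20 SE, edgeR adjusted p = 1.40e-05). The fold changes of *Ptbp2*, *Rbmxl2* and *Pcbp3* (-0.78) lie below the lowest of any member with the *Srsf* or *Hnrnp* prefix, -0.52 for *Hnrnph3*. Whether they go with the lower meiotic markers given above was not tested. *Ptbp3* and *Pcbp1* rose by 0.57 and 0.45 on the log2 scale.

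Of 11 U1 and Sm proteins, 5 fell and 0 rose, with a median log2 fold change of -0.36 (1 was higher at an unadjusted p under 0.05 and 0 with DESeq2), and *Snrpg* and *Snrpf*, members of the Sm ring, fell, with log2 fold changes of -0.80 and -0.52. Of 22 tri-snRNP proteins, 11 fell and 1 (*Sart1*) rose, with a median of -0.28, and *Lsm2* and *Ppih* fell, with log2 fold changes of -0.76 and -1.17. Of 15 proteins of the U2 snRNP and the 3′ splice site, 0 passed the edgeR test in either direction, 1 was higher and 1 lower at an unadjusted p under 0.05, and DESeq2 called 0. Of 27 tissue-biased splicing regulators, 5 rose and 10 fell. *Mbnl1* and *Mbnl2* rose by 0.54 and 0.39 on the log2 scale, and *Mbnl3* and *Celf4* fell, with log2 fold changes of -0.98 and -1.22. With libraries scaled to somatic markers, 0 genes of the kinase, hnRNP, snRNP and U2 lists were called higher, 2 SR-related genes and 1 tissue-biased regulator were, and 7 to 22 genes of each list were called lower. Over all 20327 genes tested, 262 were called higher and 9591 lower under that scaling.

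**Figure D5:**
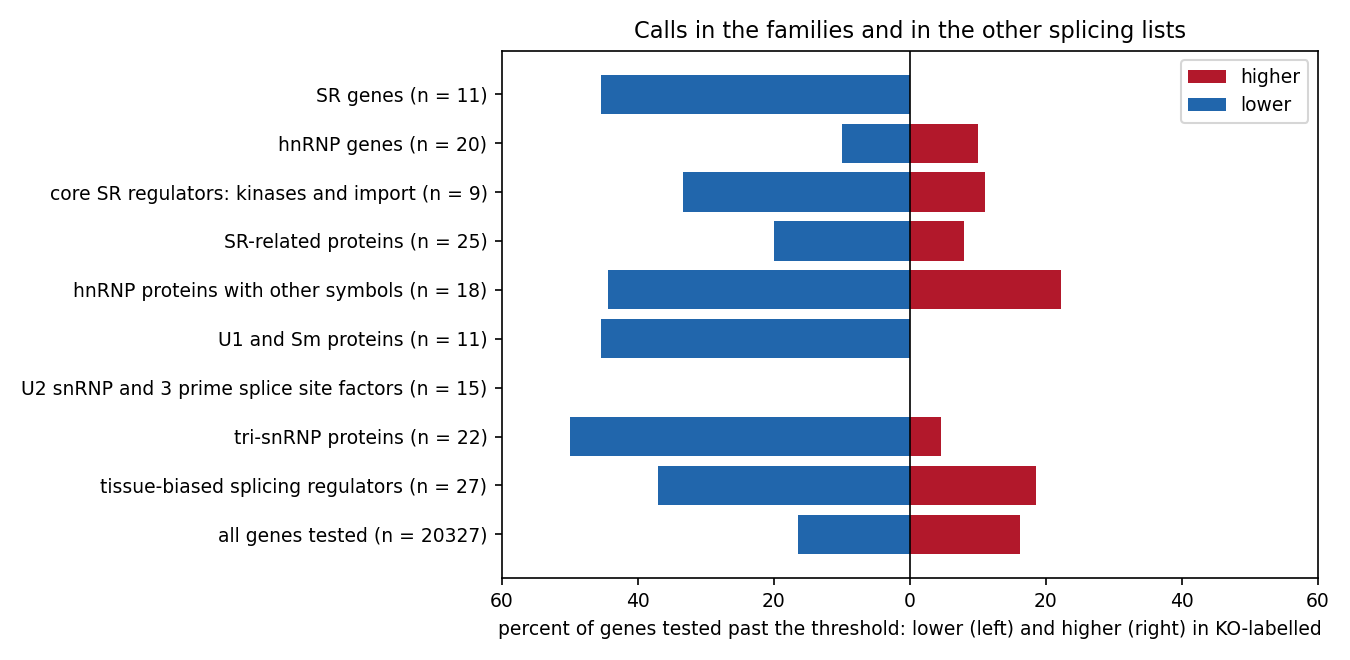
Percent of the genes tested in each family or list that were called lower (left of 0) or higher (right of 0) in KO-labelled testes, with all 20327 genes tested at the bottom for comparison. The SR genes and the U1 and Sm proteins have lower calls only, and the U2 list has 0 calls. Under scaling to somatic marker counts most genes of each list are called lower, beside 9591 of all 20327 genes.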

How the data were processed

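Total RNA of P12 testes was converted to strand-selected libraries by random and poly(T) priming with depletion of unwanted transcripts, and sequenced as 50-base single reads. After trimming (cutadapt) and alignment to GRCm38.p5 (HISAT2), the authors deposited raw counts per gene from featureCounts 1.6.4, made on 1 strand over GENCODE annotation and leaving out any read with more than 1 position or gene; exon length, another number in the deposited table, gave RPKM. All 6 libraries came from 1 table, with 0 columns of library values unused and 0 counted lines that name no gene. GENCODE M21 gave names and biotypes to 54165 of 54232 identifiers, leaving 67 unmatched.

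The counts were tested with edgeR 4.0.16 (R 4.3.3): filterByExpr, TMM, glmQLFit and glmQLFTest, with Benjamini-Hochberg adjustment over 20327 genes and calls at 0.05. The script was tested on simulated data. A standard error is the size of the log2 fold change over the square root of F. Alternatives were DESeq2 1.42.0, its size factors (RLE) in edgeR, scaling to somatic marker counts, no filter, at least 10 counts in every library, a replicate block, leaving out each library and members with at least 80% unique 50-base windows. Windows were compared with the transcripts of all other genes in GENCODE M21, not with the genome, which was not used here. Promoters are RefSeq's for GRCm38.p6. Depth was 33325483 to 44956193 counts per library, and every member but *Srsf12* had at least 811 counts in each.

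The members and lists were chosen with earlier results of these data known. Values in every library are given for called members with the smallest adjusted p (4 per direction and family), the 3 highest members of each family by RPKM and pairs that do not overlap; other lists are shown by up to 2 called genes per direction.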

Additional observations from a re-analysis of the deposited data

How the results depend on the processing

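*Srsf1*, *Hnrnph3* and *Hnrnpdl* were called lower in all 12 refits of the test, *Srsf7*, *Srsf3*, *Srsf4* and *Srsf11* in 9, 9, 6 and 4 of them, and *Hnrnpa0* and *Hnrnpa1* were called higher in 7 and 5. The 12 refits include the scaling to somatic marker counts, which moves all genes down. That refit favours lower calls and works against higher calls, so its calls add no support in either direction. With libraries scaled to somatic marker counts, 262 genes were higher and 9591 lower in all; SR genes called lower numbered 10, hnRNP genes called higher 0 and lower 16, and the medians were -0.67 for SR and -0.49 for hnRNP genes. Fold changes then turned negative for *Srsf9* (-0.37), *Hnrnpa0* (-0.13), *Hnrnpa1* (-0.26), *Hnrnpa3* (-0.32), *Hnrnpab* (-0.38), *Hnrnpf* (-0.30), *Hnrnph2* (-0.32), *Hnrnpk* (-0.46), *Hnrnpl* (-0.39), *Hnrnpu* (-0.41) and *Hnrnpul2* (-0.30), since this scaling moves all genes down alike. The median of the hnRNP genes, near 0, was 0.0186 with DESeq2 and with RLE factors, 0.0318 without a filter and -0.0163 with at least 10 counts in every library. Without a filter 3 SR genes were called lower and *Hnrnpm* had a log2 fold change of 0.0081. The median of all genes, then taken over a larger set that keeps every gene with any count, was -0.33. The medians of the SR and hnRNP genes lay 0.18 and 0.36 above it. The cause was not tested. HnRNP genes called higher numbered 1 with at least 10 counts in every library, 1 under the replicate block and 1 (*Hnrnpa0*) among members with at least 80% unique windows, which leaves out 3 hnRNP genes. The replicate numbers did not pair the libraries, the correlations of same-numbered deviations being -0.0014, -0.013 and 0.014, and the block gave 3271 higher and 3290 lower genes in all, with the same 5 SR genes called lower. With each library left out in turn, SR genes called lower numbered 1 to 4, their median ran between -0.20 and -0.13, hnRNP genes called higher numbered 0 to 3, and their median ran between -0.0109 and 0.0787. The sign of the log2 fold change was not fixed for *Srsf5* (-0.105 to 0.029), *Srsf10* (-0.14 to 0.015), *Hnrnpc* (-0.0598 to 0.027), *Hnrnpd* (-0.101 to 0.0067), *Hnrnpk* (-0.0049 to 0.089), *Hnrnpm* (-0.077 to 0.068), *Hnrnpr* (-0.2 to 0.059) and *Hnrnpul1* (-0.11 to 0.062), none of which was called. No other member changed sign in these refits. Low counts limit the reading of *Srsf12* only.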
